A study of Mus musculus with 8 samples.

Results

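The expression of 10 genes of branched-chain amino acid breakdown was examined in RNA from the hearts of WT and TIGAR-knockout (TKO) mice. They were chosen by symbol from the 16994 genes in the deposited table: *Bcat2*, *Bckdha*, *Bckdhb*, *Dbt*, *Bckdk*, *Ppm1k*, *Ivd*, *Mccc1*, *Mccc2*, and *Hibadh*. All 10 were found, each under 1 Ensembl identifier. The rule names symbols and no cutoff on a value, and it was set with earlier results of these data known. Each of 2 genotypes was sequenced in 4 heart regions (left ventricle, infarct zone, border zone, remote zone), with 1 library apiece, and values by region are given in that order unless stated. The mice were male, and TKO mice lack TIGAR in the whole body. The 3 zones came from WT and TKO mice whose left anterior descending artery was tied off permanently at 16 weeks of age. Infarcted hearts were divided into the 3 zones, so the zones of a genotype may come from the same mice. The left ventricle libraries of both genotypes served as the non-infarct reference, and RNA from 3 mice per genotype was pooled for the infarct zone. The study's echocardiography ran to 4 weeks after ligation, and its methods do not state when the tissue was taken. The strain of the WT mice, the age and any sham surgery of the left ventricle mice, and the numbers pooled for the other regions are not given in the sources used here. No group had a second library, so no ratio between 2 libraries has a replicate check.

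Leucine, isoleucine, and valine are broken down inside mitochondria. BCAT2 first moves the amino group to a keto acid acceptor, which leaves branched-chain keto acids. The branched-chain keto acid dehydrogenase complex, built from the decarboxylase subunits BCKDHA and BCKDHB, the transacylase DBT, and the shared dehydrogenase DLD, then commits the carbon skeleton to oxidation. The kinase BCKDK phosphorylates BCKDHA and turns the complex off, and the phosphatase PPM1K removes the phosphate and turns it on. IVD and the carboxylase MCCC1-MCCC2 act further down the leucine branch, and HIBADH oxidizes 3-hydroxyisobutyrate in the valine branch. Heart muscle is a tissue with an active form of this pathway, and low expression of its genes with accumulation of branched-chain keto acids is a known feature of the failing heart.

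Because most of these genes moved together between regions, the sequence before their transcription starts was searched for 3 short motifs. RefSeq promoter windows of GRCm38.p6, from 250 bases before to 50 bases after the start, were at hand for 9 of the 10 genes, all but *Dbt*. The oestrogen-related receptor motif AAGGTCA, on either strand, was present in 0 of these 9 genes and in 4.72% of 32851 windows of all genes. The E-box CACGTG, which reads the same on both strands, was present in 1 of 9 genes, *Mccc2*, and in 7.15% of all windows. The GC box GGGCGG, on either strand, was present in 4 of 9 genes (*Bckdhb*, *Ppm1k*, *Mccc1*, and *Hibadh*) and in 35.7% of all windows. The 9 genes have 11 windows, and counted by window the 3 motifs were in 0, 1, and 4 of the 11. The 250 bases before the start are shown for 4 genes, on the strand of the gene and with matches in capitals. *Bckdk* and *Ppm1k* are shown as the opposing regulators of the complex. *Mccc2* holds the E-box, and *Hibadh*, with GC boxes on both strands, lay nearest to the median expression profile of the genes tested, a profile it helps to set. Their positions are chr7:127903823-127904072 on the plus strand for *Bckdk*, chr6:57535488-57535737 on the minus strand for *Ppm1k*, chr13:100015640-100015889 on the minus strand for *Mccc2*, and chr6:52640301-52640550 on the minus strand for *Hibadh*.
Bckdk: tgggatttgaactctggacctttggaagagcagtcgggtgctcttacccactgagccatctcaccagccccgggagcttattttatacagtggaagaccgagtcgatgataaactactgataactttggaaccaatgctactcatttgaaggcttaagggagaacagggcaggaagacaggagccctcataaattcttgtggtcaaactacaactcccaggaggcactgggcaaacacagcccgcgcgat
Ppm1k: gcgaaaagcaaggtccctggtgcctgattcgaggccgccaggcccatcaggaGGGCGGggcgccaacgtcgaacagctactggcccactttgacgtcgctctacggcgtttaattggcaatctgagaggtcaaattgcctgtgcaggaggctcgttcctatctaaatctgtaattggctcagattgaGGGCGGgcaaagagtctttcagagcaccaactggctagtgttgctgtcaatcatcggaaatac
Mccc2: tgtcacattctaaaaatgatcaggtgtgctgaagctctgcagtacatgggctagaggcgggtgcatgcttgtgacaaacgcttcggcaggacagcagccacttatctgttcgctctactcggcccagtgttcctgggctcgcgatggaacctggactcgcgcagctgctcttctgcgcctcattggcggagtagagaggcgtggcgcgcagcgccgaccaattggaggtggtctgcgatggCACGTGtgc
Hibadh: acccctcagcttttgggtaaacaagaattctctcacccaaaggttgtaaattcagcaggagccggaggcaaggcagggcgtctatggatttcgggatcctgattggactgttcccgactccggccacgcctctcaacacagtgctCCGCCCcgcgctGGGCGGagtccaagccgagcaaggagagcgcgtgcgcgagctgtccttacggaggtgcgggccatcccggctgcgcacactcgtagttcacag
The GC boxes of *Ppm1k* began 198 and 63 bases before the start, and the E-box of *Mccc2* began 9 bases before it. A match is a stretch of letters only, and no binding was measured here.

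The libraries held 27429240 to 33799249 estimated counts. For comparisons of a gene between libraries, counts were expressed as CPM (counts scaled to a common library size) of the library total times its TMM factor, a correction for unequal RNA composition computed by edgeR. The factor was 1.54 for the WT and 1.26 for the TKO infarct zone and between 0.866 and 0.956 for the other 6 libraries. *Tigar*, the disrupted gene, had 1066 to 2215 counts in the 4 WT libraries and 51 to 87 in the 4 TKO libraries, as their labels say. The summed level of 10 cardiomyocyte markers was lowest in the WT infarct zone (9693 CPM), followed by the TKO infarct zone (19909 CPM), and was between 32202 and 43554 CPM in the other 6 libraries. The WT left ventricle stood apart in adipocyte markers, 4 of which summed to 30.5 CPM there, against 0.463 to 6.26 CPM elsewhere. The 4 atrial markers summed to 188, 3045, 1725, and 2494 CPM in WT and 299, 2093, 494, and 691 CPM in TKO. The sums were thus higher in WT than in TKO in each of the 3 zones. The sum of the TKO infarct zone does not speak for all 4 markers. Relative to the TKO left ventricle, 1 of 4 was higher there (7.46 times) and 3 were lower, with a median ratio of 0.319. In the WT infarct zone 4 of 4 were higher, with a median ratio of 5.07.

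Of the 10 genes, 9 had at least 505 counts in every library. *Bckdhb* (ENSMUSG00000032263), which encodes the beta subunit of the decarboxylase, had 0, 6, 0, and 5 counts in WT and 0, 2, 30, and 0 in TKO. Of the 8 libraries, 4 thus list it at 0. Its partner *Bckdha* had at least 3119 counts in the same libraries, and a 0 in a table of estimated counts can be a failed estimate, so no ratio is given for *Bckdhb*. It did not reach the mean of 1 CPM required for testing, and the counts below refer to the other 9 genes unless stated.

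Levels of different genes were compared as CPM per kilobase of the longest protein-coding transcript. In the WT left ventricle *Bckdha* was highest at 190.2 CPM per kilobase, followed by *Hibadh* at 151, *Ivd* at 136, *Bcat2* at 62.2, and *Mccc1* at 47.8. The kinase gene *Bckdk* stood at 28.7 CPM per kilobase, *Mccc2* at 27.1, the transacylase gene *Dbt* at 24.4, and the phosphatase gene *Ppm1k* at 13.8. The order from *Bckdha* to *Bckdk* held in 8 of 8 libraries. *Bckdk* was above *Mccc2* in 7 of 8 libraries and *Mccc2* above *Dbt* in 7 of 8, so the order of these 3 was not fixed. Each gene's range over the libraries overlapped that of its neighbour, because every gene varied widely over the 8 libraries of both genotypes. The highest CPM was 2.52 times the lowest for *Bckdk* and 5.89 times for *Mccc2*, the smallest and the largest of these spans.

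**Figure D1:**
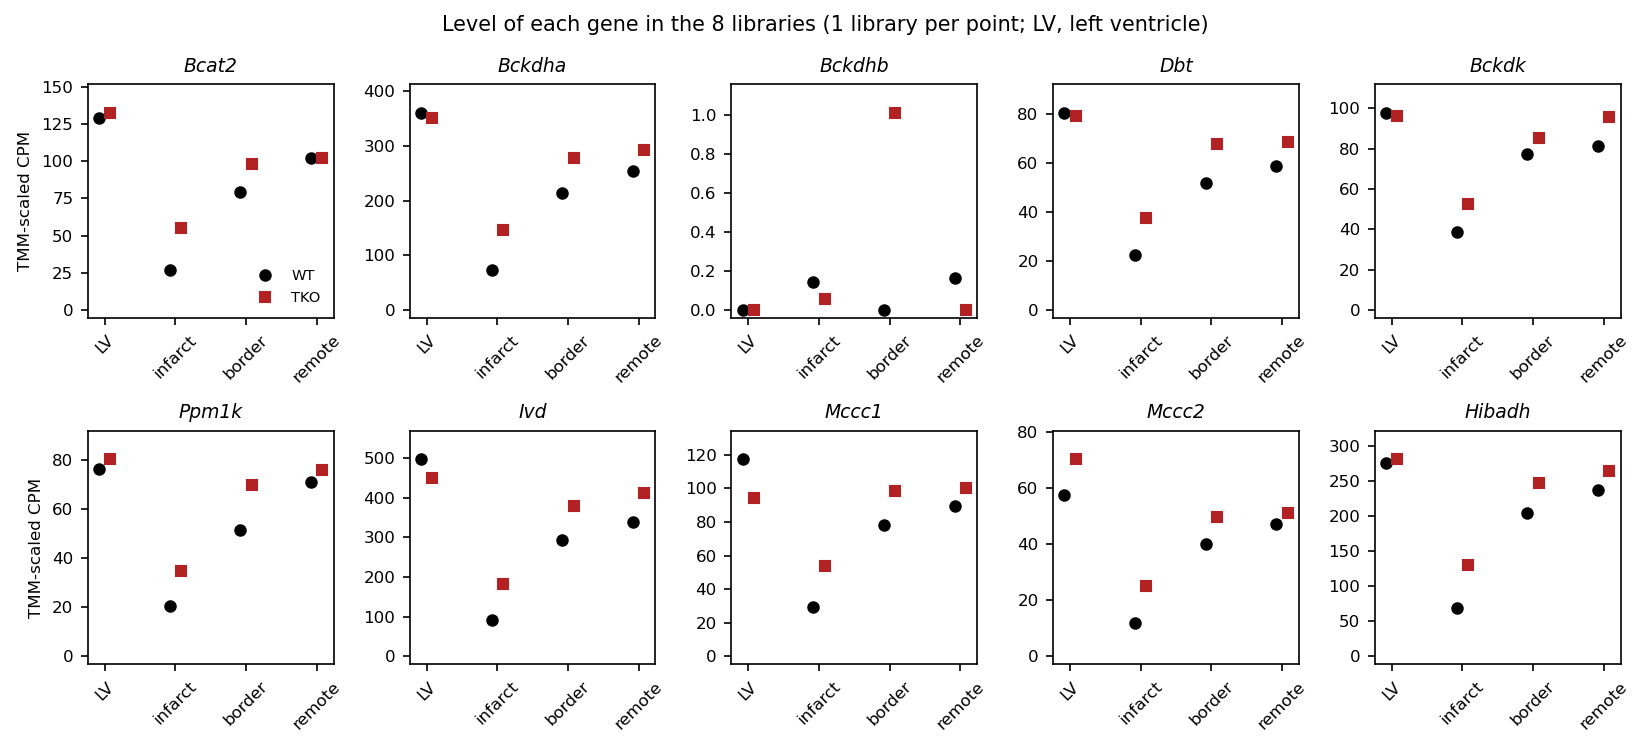
TMM-scaled CPM (vertical axis, from 0, 1 scale per gene) of the 10 genes in each region (horizontal axis), with WT as circles and TKO as squares and 1 library per point. For 9 genes the WT infarct zone is the lowest point and the TKO infarct zone the next lowest, and *Bckdhb* lies at or near 0 throughout, with 1.01 CPM in the TKO border zone as its highest value.

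The infarct zone was compared with the left ventricle to see how far the pathway was reduced after infarction. All 9 genes were lower in the infarct zone in both genotypes. The median ratio of infarct zone to left ventricle was 0.249 in WT, from 0.183 for *Ivd* to 0.396 for *Bckdk*, and 0.433 in TKO, from 0.359 for *Mccc2* to 0.569 for *Mccc1*. The medians over all 12999 genes tested were 1.01 in both genotypes. All 9 were at least 1.5-fold lower in WT, against 25.8% of all genes, and all 9 in TKO, against 20.2%. Counting-error intervals of the 9 ratios lay below 1 in both genotypes. With libraries scaled to total counts alone, the medians were 0.442 in WT and 0.629 in TKO, with 8 of 9 and 5 of 9 genes at least 1.5-fold lower.

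The transamination step was carried by *Bcat2* (ENSMUSG00000030826, chr7:45570153-45589711). In WT hearts it had 129, 26.9, 79.4, and 102 CPM, and in TKO hearts 133, 55.2, 97.8, and 102 CPM. The genotypes were thus nearly level in the left ventricle and remote zone and farthest apart in the infarct zone, where the ratio to the left ventricle was 0.208 in WT (exact 95% interval from counting error, 0.195 to 0.223) and 0.416 in TKO (0.393 to 0.440).

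Of the dehydrogenase complex, *Bckdha* (ENSMUSG00000060376, chr7:25629946-25658981) had 361, 73.7, 215, and 254 CPM in WT and 351, 146, 278, and 292 CPM in TKO. *Dbt* (ENSMUSG00000000340, chr3:116513070-116549981) had 80.5, 22.6, 51.8, and 58.9 CPM in WT and 79.0, 37.7, 67.6, and 68.7 CPM in TKO. Both subunit genes ran from the left ventricle down through the remote and border zones to the infarct zone in each genotype. In the WT infarct zone *Dbt* kept more of its left ventricle level (0.281, 0.260 to 0.303) than *Bckdha* did (0.204, 0.196 to 0.213). The count ratio of *Dbt* to *Bckdha* within a library, which does not depend on scaling, was 0.306 in the WT infarct zone against 0.223 in the WT left ventricle. The odds ratio between these libraries was 1.37 (1.26 to 1.499), and in TKO it was 1.15 (1.06 to 1.24). The part that cell content had in this shift was not tested.

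The regulators of the complex differed from each other in how far they moved. *Bckdk* (ENSMUSG00000030802, chr7:127904082-127910221) had 97.9, 38.8, 77.1, and 81.5 CPM in WT and 96.0, 52.8, 85.4, and 95.9 CPM in TKO. *Ppm1k* (ENSMUSG00000037826, chr6:57506502-57535468) had 76.6, 20.5, 51.6, and 71.3 CPM in WT and 80.5, 34.9, 69.9, and 76.0 CPM in TKO. The kinase gene kept the largest share of its left ventricle level of the 9 genes in the WT infarct zone, 0.396 (0.372 to 0.421), and the phosphatase gene kept 0.268 (0.247 to 0.290).

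In the leucine branch, *Ivd* (ENSMUSG00000027332, chr2:118861954-118882909), the isovaleryl-CoA dehydrogenase gene, had 497, 91.1, 294, and 339 CPM in WT and 449, 183, 378, and 411 CPM in TKO. Its WT infarct zone ratio to the left ventricle, 0.183 (0.177 to 0.190), was the lowest of the 9. *Mccc1* (ENSMUSG00000027709, chr3:35959312-36000678), the biotin-carrying subunit of methylcrotonyl-CoA carboxylase, had 117, 29.2, 78.0, and 89.7 CPM in WT and 93.9, 53.5, 98.3, and 99.9 CPM in TKO. Its TKO border and remote zones were thus level with or slightly above the TKO left ventricle, by 1.05 (0.991 to 1.10) and 1.06 (1.01 to 1.12). *Mccc2* (ENSMUSG00000021646, chr13:99948530-100015639), the other carboxylase subunit, had 57.5, 11.9, 40.0, and 47.3 CPM in WT and 70.3, 25.2, 49.6, and 51.0 CPM in TKO, with the TKO left ventricle as its highest library. In the valine branch, *Hibadh* (ENSMUSG00000029776, chr6:52546228-52640389) had 276, 69.5, 204, and 238 CPM in WT and 281, 130.4, 248, and 265 CPM in TKO. Its genotypes were closest in the left ventricle and farthest apart in the infarct zone.

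In an edgeR quasi-likelihood fit of region and genotype over the 8 libraries, adjusted by Benjamini-Hochberg over all 12999 genes, the test called 9 of 9 genes lower in the infarct zone than in the left ventricle, where 28.6% of all genes were called lower and 28.2% higher. This test has 2 libraries on each side, 1 per genotype, and bears on these libraries and not on mice. The log2 differences ran from -1.10 for *Bckdk* (SE 0.13, adjusted p = 0.00141) to -1.86 for *Ivd* (SE 0.27, adjusted p = 0.00213). With libraries scaled to total counts alone, the median log2 difference over all genes moved from 0.02 to 0.71, 7869 genes were called higher and 1084 lower (3670 and 3715 with TMM), and 9 of 9 genes were still called lower. The 9 genes were also called without the WT left ventricle library and without the WT remote zone library. In bulk tissue, fewer cardiomyocytes and less RNA per cardiomyocyte cannot be told apart. Cardiomyocyte markers were lower alongside: the median infarct zone to left ventricle ratio of the 10 markers was 0.237 in WT and 0.458 in TKO, each lower in 10 of 10 markers. The medians of the 9 genes were 1.05 times those of the markers in WT and 0.945 times in TKO. The part that cell content had in the difference was not tested.

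In the border and remote zones the same genes stood closer to the left ventricle. The median border zone ratio was 0.665 in WT, with 5 of 9 genes at least 1.5-fold lower (6.52% of all genes), and 0.856 in TKO, with 0 of 9 (4.83%). The median remote zone ratio was 0.791 in WT, with 0 of 9 genes past 1.5-fold (5.38%), and 0.915 in TKO, also with 0 of 9 (4.37%). The WT border zone ratios ran from 0.591 for *Ivd* and 0.594 for *Bckdha* to 0.788 for *Bckdk*. In the edgeR fit, 0 of 9 genes were called for the border zone, where 0.715% of all genes were, and 1 of 9 had an unadjusted p under 0.05. None of the 9 was called for the remote zone, where 0% of all genes were called by edgeR, 1378 genes had an unadjusted p under 0.05, and DESeq2 called 162 genes and none of the 9. The median edgeR log2 difference of the 9 genes from the left ventricle was -0.44 for the border zone and -0.34 for the remote zone. Without the WT left ventricle library these medians became -0.19 and 0.01, so they lean on that library.

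**Figure D2:**
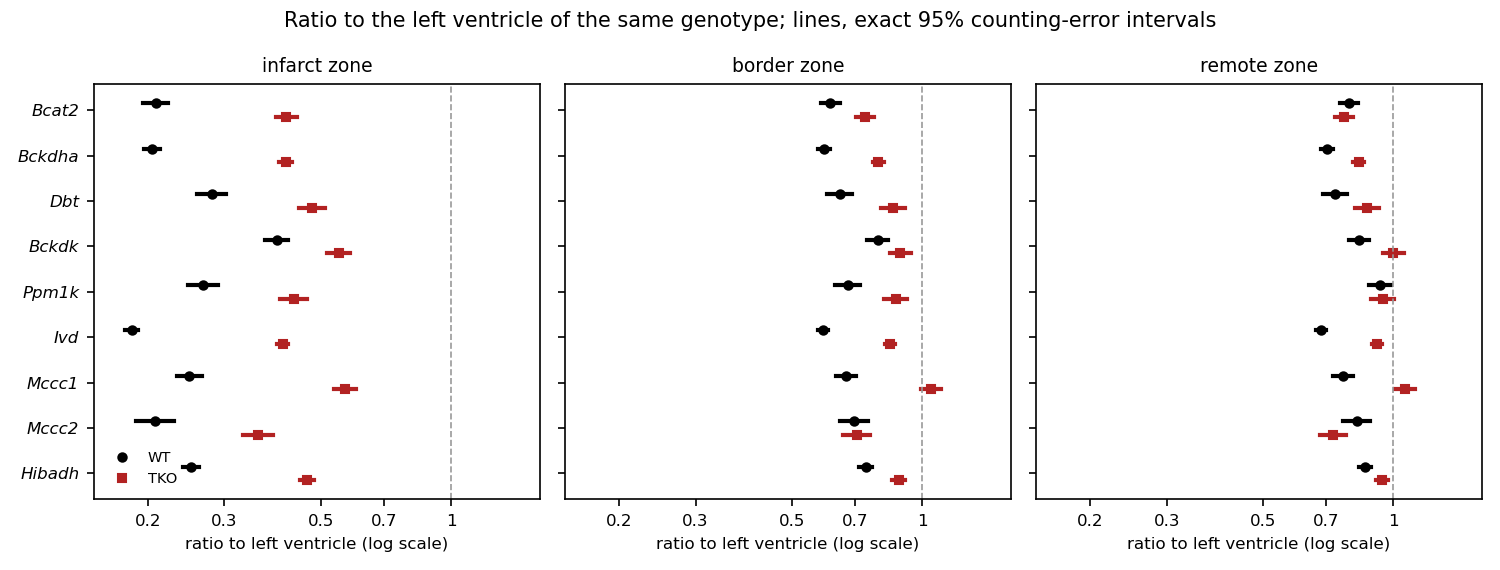
Ratio of each zone to the genotype's own left ventricle (horizontal axis, log scale) for the 9 genes tested, with WT as circles, TKO as squares, and lines for exact 95% intervals that cover counting error only. In the infarct zone every WT point lies left of its TKO point, and in the border and remote zones the points lie nearer to 1.

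The genotypes were then compared within each region, the comparison for which the series was made. In the infarct zone all 9 genes were higher in TKO than in WT. The median TKO over WT ratio was 1.88, against 1.0 for all genes tested, and 8 of 9 genes were at least 1.5-fold higher, against 10.1% of all genes. *Mccc2* had the highest ratio, 2.11 (1.89 to 2.36), followed by *Bcat2* at 2.05 (1.90 to 2.20), *Ivd* at 2.01 (1.93 to 2.09), and *Bckdha* at 1.98 (1.89 to 2.07). *Hibadh* stood at 1.88 (1.79 to 1.97), *Mccc1* at 1.83 (1.71 to 1.97), *Ppm1k* at 1.70 (1.56 to 1.85), and *Dbt* at 1.67 (1.54 to 1.82). *Bckdk* was the gene below 1.5-fold, at 1.36 (1.27 to 1.46), and its interval did not overlap that of any of the other 8. Scaling by total counts lowered every infarct zone ratio by 0.29 on the log2 scale, which put the median of all genes at 0.819 and that of the 9 genes at 1.53, with 9 of 9 still above 1 and 5 of 9 past 1.5-fold.

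The differences were smaller outside the infarct zone. In the border zone the median ratio was 1.26, from 1.11 for *Bckdk* (1.05 to 1.17) to 1.36 for *Ppm1k* (1.27 to 1.45), with 9 of 9 intervals above 1 and 0 of 9 genes past 1.5-fold (3.61% of all genes). In the remote zone it was 1.11, from 0.997 for *Bcat2* (0.949 to 1.05) to 1.21 for *Ivd* (1.18 to 1.25), with 8 of 9 intervals above 1 and again 0 of 9 genes past 1.5-fold (3.13%). In the left ventricle the median was 0.982, with 4 genes above 1 and 5 below, and 0 of 9 past 1.5-fold higher (5.69%). The left ventricle intervals lay below 1 for *Mccc1* (0.801, 0.760 to 0.845) and *Ivd* (0.903, 0.881 to 0.926), above 1 for *Mccc2* (1.22, 1.14 to 1.31), and across 1 for the other 6 genes.

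**Figure D3:**
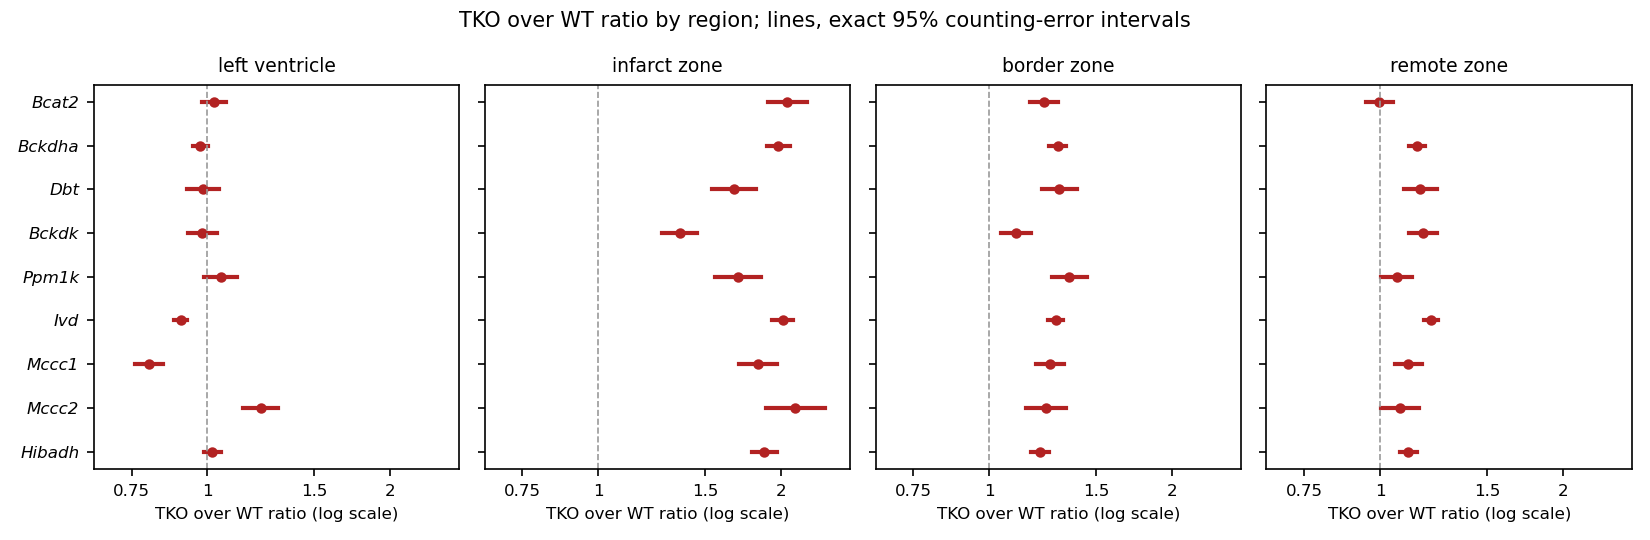
TKO over WT ratio (horizontal axis, log scale) of the 9 genes tested in each of the 4 regions, 1 library per genotype, with lines for exact 95% intervals that cover counting error only and a dashed line at 1. All 9 points lie right of the line for the infarct zone (1.36 to 2.11) and the border zone (1.11 to 1.36), and they lie on both sides of it in the left ventricle (0.801 to 1.22).

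Tested across the 4 regions as blocks, edgeR's quasi-likelihood test called 0 of 9 genes for genotype, against 0.138% of all genes (18 genes). All 9 had a positive log2 difference, from 0.20 for *Bckdk* to 0.44 for *Mccc2*, with adjusted p from 0.27 to 0.50, and *Dbt*, *Mccc2*, and *Ppm1k* had an unadjusted p under 0.05. DESeq2's Wald test called 342 genes and also 0 of the 9. The median log2 difference of the 9 genes was 0.34, and it was 0.17 without the infarct zone, so that pair of libraries carried much of it. Here regions take the place of replicates, and zones that may share mice are not independent, so the p-values speak of regions, not of mice.

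A separate term tested whether the genotype difference in the infarct zone departed from that in the other 3 regions. All 9 estimates were positive, from 0.33 for *Bckdk* to 0.92 for *Bcat2*, with a median of 0.81 on the log2 scale, against 0.05 over all genes. The 2 tools differed in their calls. The edgeR test called 0 of 9 genes, against 0.00769% of all genes (1 gene), with adjusted p from 0.410 to 0.812 and an unadjusted p under 0.05 for 8 of 9. DESeq2's Wald test called 4 of 9 higher, against 2.22% of all genes: *Bcat2* (adjusted p = 0.00690), *Hibadh* (adjusted p = 0.0101), *Bckdha* (adjusted p = 0.0160), and *Ivd* (adjusted p = 0.0218). *Mccc2* had no adjusted p in DESeq2, and the 2.22% counts such genes as not called. Without the WT left ventricle library, which leaves 1 residual degree of freedom, edgeR called 6 of 9 genes and 891 genes in all. The term rests on 1 TKO and 1 WT infarct zone library.

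Other genes showed where the 9 stood among the contents of the tissue. In the infarct zone the median TKO over WT ratio was 1.88 for 17 tricarboxylic acid cycle genes, of which 16 were higher in TKO, and 1.95 for the 10 cardiomyocyte markers, of which 10 were. The median of the 9 genes was 0.964 times that of the cardiomyocyte markers and 1.0 times that of the tricarboxylic acid cycle genes. Elsewhere it was 0.873 (left ventricle), 1.09 (border), and 1.03 (remote) times the cardiomyocyte marker median. The 8 fibroblast markers had median ratios of 1.05, 0.810, 0.568, and 0.690 over the 4 regions, and the 8 macrophage markers 0.898, 0.721, 0.808, and 0.731. Summed fibroblast markers ranged from 933 to 8302 CPM and macrophage markers from 317 to 1604 CPM over the 8 libraries, both highest in the WT infarct zone. The TKO over WT medians of the 4 atrial markers were 1.45, 0.110, 0.480, and 0.347 over the 4 regions, with 4 of 4 markers lower in TKO in each zone and from 0.0394 to 0.698 in the infarct zone. In that zone 4 smooth muscle markers had a median ratio of 0.554 (4 of 4 lower), 3 measured lymphocyte markers one of 0.525 (3 of 3 lower), 2 measured adipocyte markers one of 0.667 (2 of 2 lower), and 6 endothelial markers one of 1.15 (4 of 6 higher). Over all libraries, 6 endothelial markers summed to 516 to 724 CPM, 4 smooth muscle markers to 129 to 615 CPM, and 5 lymphocyte markers to 1.24 to 17 CPM. The part that cell content had in the genotype difference of the 9 genes was not tested.

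**Figure D4:**
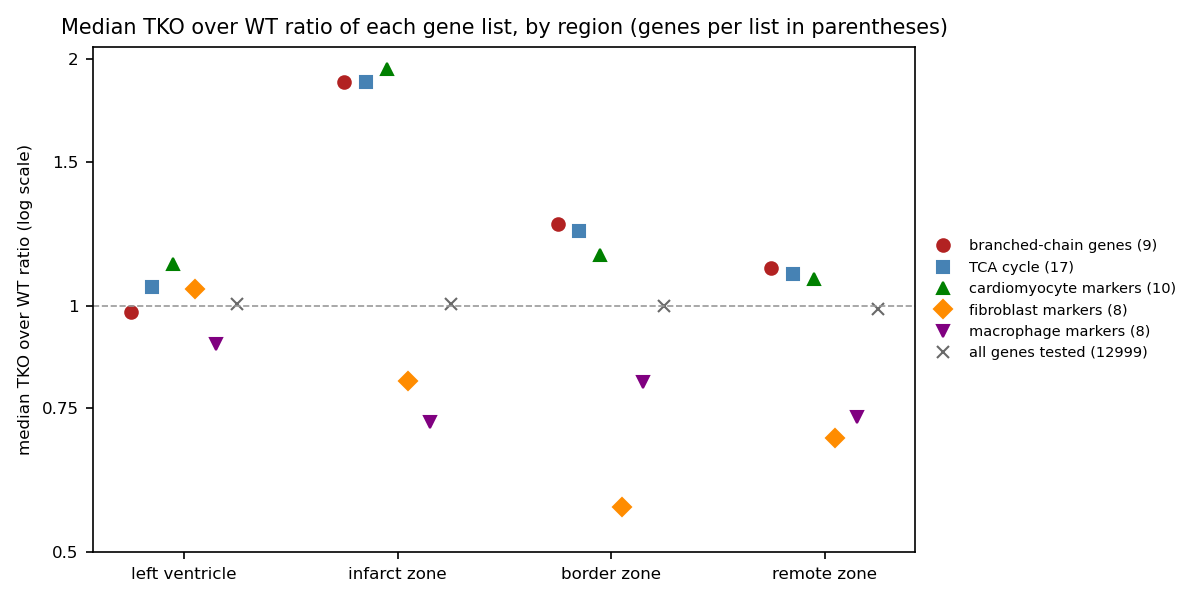
Median TKO over WT ratio (vertical axis, log scale) of the 9 branched-chain genes, tricarboxylic acid (TCA) cycle genes, cardiomyocyte, fibroblast, and macrophage markers, and all genes tested, by region, from 1 library per genotype and region. In the infarct zone the branched-chain genes (1.88), the TCA cycle genes (1.88), and the cardiomyocyte markers (1.95) lie close together, above all genes (1.0) and the fibroblast (0.810) and macrophage (0.721) markers.

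Ratios of 2 genes within a library were used to follow the balance of the regulators, since such ratios do not change with library scaling. Odds ratios between libraries were computed for 6 pairs of genes. Such ratios do not remove differences in cell content between libraries. From left ventricle to infarct zone, the median ratio of the cardiomyocyte markers was 0.237 in WT and 0.458 in TKO. That of the 8 fibroblast markers was 10.6 in WT (8 of 8 higher) and 7.58 in TKO (7 of 8 higher). The part that cell content had in the ratios of the 6 pairs was not tested. Phosphatase to kinase, the count ratio of *Ppm1k* to *Bckdk* was 0.783, 0.529, 0.668, and 0.875 over the 4 regions of WT hearts and 0.839, 0.660, 0.819, and 0.792 over those of TKO hearts. The ratio was thus lowest in the infarct zone of both genotypes, and counts do not tell how active either enzyme was. Between TKO and WT the odds ratio was above 1 for the infarct zone (1.25, 1.12 to 1.39) and the border zone (1.22, 1.12 to 1.34). It was below 1 for the remote zone (0.905, 0.835 to 0.981), and its interval held 1 for the left ventricle (1.07, 0.986 to 1.16).

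Set against the gene of its substrate subunit, the kinase gene stood highest in the infarct zone. The count ratio of *Bckdk* to *Bckdha* was 0.271, 0.526, 0.359, and 0.321 in WT and 0.273, 0.362, 0.307, and 0.328 in TKO. The WT infarct zone was the library with the highest value. Relative to the left ventricle the odds ratio in the infarct zone was 1.94 (1.80 to 2.09) in WT and 1.32 (1.23 to 1.42) in TKO, and between TKO and WT infarct zones it was 0.688 (0.635 to 0.746). The phosphatase gene departed less from *Bckdha*, with an infarct zone to left ventricle odds ratio of 1.31 (1.20 to 1.43) in WT and 1.04 (0.963 to 1.13) in TKO. Between genotypes *Ppm1k* to *Bckdha* had odds ratios of 1.08 (1.01 to 1.16), 0.858 (0.778 to 0.947), 1.05 (0.972 to 1.13), and 0.925 (0.866 to 0.989) over the 4 regions. Cell content may differ between these libraries, and its part in these ratios was not tested.

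The carboxylase subunits MCCC1 and MCCC2 work as 1 enzyme, and the counts of their genes stood between 0.409 and 0.527 in ratio in 7 of 8 libraries. *Mccc2* to *Mccc1* stood at 0.490, 0.409, 0.512, and 0.527 over the 4 WT libraries and at 0.471, 0.504, and 0.510 over the 3 zones of TKO hearts. The TKO left ventricle stood apart at 0.748 (0.704 to 0.795), with *Mccc1* lower and *Mccc2* higher than in the WT left ventricle. The odds ratio between these 2 libraries was 1.53 (1.40 to 1.66), and over the infarct, border, and remote zones it was 1.15 (1.01 to 1.31), 0.985 (0.896 to 1.08), and 0.969 (0.886 to 1.06).

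**Figure D5:**
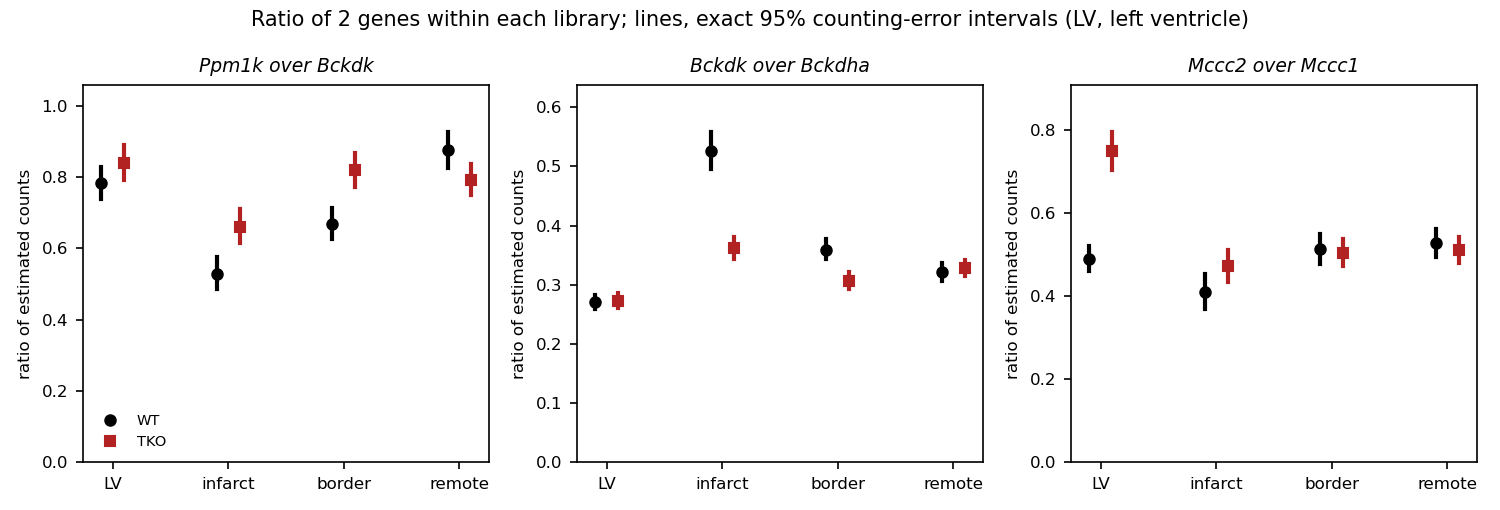
Ratio of the estimated counts of 2 genes within each library (vertical axis, from 0) by region, with WT as circles, TKO as squares, and lines for exact 95% intervals that cover counting error only. *Ppm1k* over *Bckdk* is lowest in the WT infarct zone (0.529), *Bckdk* over *Bckdha* is highest there (0.526), and *Mccc2* over *Mccc1* stands apart in the TKO left ventricle (0.748).

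The rest of the pathway was followed in 26 further genes for transport, shared steps, the leucine, valine, and isoleucine branches, and propionyl-CoA. In the edgeR fit 19 of 26 were called lower in the infarct zone than in the left ventricle (28.6% of all genes), 4 higher (28.2%), and 3 were not called. The 4 higher genes were *Bcat1* and the amino acid transporter genes *Slc43a1*, *Slc7a5*, and *Slc3a2*, and the 3 not called, *Slc7a8*, *Slc43a2*, and *Slc25a44*, are transporter genes as well. With total counts the numbers became 14 lower and 7 higher. In the comparison of TKO with WT 0 of 26 were called across regions, and the median ratios over the 4 regions were 1.03, 1.59, 1.16, and 1.09, with 16, 21, 21, and 21 of 26 genes above 1. For the departure of the infarct zone, edgeR called 0 of 26, against 0.00769% of all genes. DESeq2, which called 2.22% of all genes, called 5 of the 26 higher, *Dld*, *Hibch*, *Acat1*, *Echs1*, and *Hadh*. It gave no adjusted p for 14 of the 26, so those could not be called. The 2.22% likewise counts genes without an adjusted p as not called.

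*Bcat1*, the cytosolic aminotransferase, moved opposite to *Bcat2* between infarct zone and left ventricle. It had 59, 255, 48, and 38 counts in WT and 9, 119, 33, and 40 in TKO. The counts were few, and the infarct zone was the highest region in each genotype. Its log2 difference between infarct zone and left ventricle was 2.05 (SE 0.58, edgeR adjusted p = 0.0233). The count ratio of *Bcat1* to *Bcat2* was 0.224 in WT and 0.0603 in TKO infarct tissue, and 0.00262 to 0.0196 in the other 6 libraries. TKO over WT, *Bcat1* had a ratio of 0.552 (0.440 to 0.689) in the infarct zone and 0.161 (0.0704 to 0.328) in the left ventricle, where the WT library also had the high adipocyte markers. In that left ventricle pair, 3 measured lymphocyte markers had a median ratio of 0.163 (3 of 3 lower). The 4 smooth muscle markers had one of 0.786 (4 of 4 lower), and the 4 atrial markers one of 1.45 (4 of 4 higher). The part of tissue content in the *Bcat1* ratio was not tested.

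*Dld*, the dehydrogenase that the complex shares with pyruvate dehydrogenase, had 511, 147, 424, and 496 CPM in WT and 575, 263, 530.1, and 535 CPM in TKO, a TKO over WT ratio of 1.80 (1.74 to 1.86) in the infarct zone. It was among the genes that DESeq2 called for the departure of the infarct zone (adjusted p = 0.0205). *Slc25a44*, the mitochondrial carrier of branched-chain amino acids, had 14.6, 9.72, 14.0, and 15.6 CPM in WT and 15.6, 16.4, 16.2, and 19.7 CPM in TKO. Its infarct zone stood at 0.667 times the left ventricle in WT (0.580 to 0.768) and at 1.05 in TKO (0.926 to 1.20), and edgeR did not call it for region (log2 difference -0.24, adjusted p = 0.252). *Klf15*, a transcription factor known to drive branched-chain breakdown genes in the heart, had 66.9, 24.2, 42.2, and 51.0 CPM in WT and 43.2, 32.4, 39.6, and 47.5 CPM in TKO. Its TKO over WT ratio was 0.645 (0.599 to 0.696) in the left ventricle and 1.34 (1.23 to 1.46) in the infarct zone. In the border and remote zones *Klf15* was slightly lower in TKO, with counting-error intervals that held 1. The left ventricle pair is the one whose WT library had the high adipocyte markers. The part of tissue content in the *Klf15* ratios was not tested.

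The highest TKO over WT ratios of the 26 genes in the infarct zone were those of *Hadh*, of fatty acid and isoleucine oxidation (2.06, 1.998 to 2.13), and *Mmaa*, of cobalamin handling (1.94, 1.56 to 2.42), and the lowest were *Bcat1* and the amino acid transporter gene *Slc7a8* (0.716, 0.592 to 0.863). In the border zone *Aldh6a1*, of valine breakdown (1.34, 1.30 to 1.39), and *Mmut*, the methylmalonyl-CoA mutase gene (1.31, 1.25 to 1.38), were highest, and *Bcat1* (0.714, 0.444 to 1.14) and *Slc7a8* (0.737, 0.559 to 0.969) lowest. In the remote zone *Mmab*, of cobalamin handling (1.28, 1.18 to 1.39), and *Slc25a44* (1.26, 1.11 to 1.42) were highest, and *Slc43a1* (0.758, 0.551 to 1.04) and *Slc7a8* (0.869, 0.656 to 1.15) lowest. In the left ventricle *Abat*, the GABA transaminase gene (1.44, 1.29 to 1.61), was highest, and *Bcat1* and *Slc43a1* (0.606, 0.432 to 0.843) lowest.

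Among 8404 genes averaging 10 CPM or more, those whose profile over the 8 libraries lay nearest to the median profile of the 9 genes were *Cs* (citrate synthase), *Suclg1* (a succinyl-CoA ligase subunit), *Atp5a1*, *Apip* (methionine salvage), and *Atp5b*. *Atp5a1* and *Atp5b* encode ATP synthase subunits, and *Cs* and *Suclg1* are on the tricarboxylic acid cycle list used above. The measure was the root mean square difference of log2 CPM after each gene was centred on its mean, and it was 0.02 for *Cs* and 0.04 for *Atp5b*. *Hibadh* ranked nearest of the 9 genes themselves (rank 8 of 8404), then *Bckdha* (rank 60) and *Ppm1k* (rank 87), and *Bckdk* was farthest (rank 757). The 9 genes set the profile, so their own ranks are not an independent measure of likeness. The 2 infarct zone libraries hold the lowest values of this profile, so likeness over the 8 libraries leans on them.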

How the data were processed

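Bulk RNA was sequenced from WT and TKO mouse hearts, 1 library for each of 8 groups, which were assigned from the labels. Per the labels and the study's methods, reads were trimmed by the authors (Trim Galore 0.6.5), transcripts were quantified with Kallisto 0.46 on the mm10 (GRCm38) transcriptome, and tximport gave values per gene. The deposited values are estimated counts for 16994 genes, given as whole numbers without normalization; near-identical transcripts can share reads in such estimates.

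Genes were tested where their mean was at least 1 CPM (12999 genes, 9 of the 10 chosen genes, *Bcat2* to *Hibadh* without *Bckdhb*; medians planned over 10 genes are therefore over 9). Ratios used edgeR 4.0.16 (R 4.3.3) TMM factors from all 8 libraries and a prior count of 2 for counts past 1.5-fold. Intervals are exact (Clopper-Pearson, 95%) and cover counting error only, with reads taken as independent. Reads carry no molecular identifiers and so are not fully independent, and the intervals may be too narrow even for counting error. edgeR's quasi-likelihood test, with DESeq2 1.42.0 as the alternative, was fitted with region and genotype over all 8 libraries. The edgeR test was also run on simulated counts with known changes in a set of genes and otherwise equal means. Those counts lack the wide differences between regions of these data, so that run checked the code only. P-values come from regions used as replicates and measure the spread between these libraries. Gene coordinates and transcript lengths come from GENCODE M21 (GRCm38) and promoters from RefSeq. Alternatives were other scalings, filters, and tools, single regions left out, and, chosen after seeing the data, the WT left ventricle or WT remote zone library left out.

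Named genes were all 10 chosen genes, *Bcat1*, *Dld*, *Klf15*, *Slc25a44*, *Tigar*, the 2 highest and 2 lowest other pathway genes by TKO over WT ratio in each region (1 of these is not reported here), and the 5 genes with the nearest profile; *Slc7a5*, *Slc3a2*, *Slc43a2*, *Hibch*, *Acat1*, and *Echs1* were named after their values were seen. The genes, lists, and tests were chosen with earlier results of these data known. Python 3.11.15, pandas 2.3.3, numpy 2.4.6, scipy 1.17.1, and matplotlib 3.10.9 were used.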

Additional observations from a re-analysis of the deposited data

Results flagged for a closer look

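*Mccc1* and *Ivd* were lower in TKO than in WT in the left ventricle and higher in the other 3 regions, each with counting-error intervals wholly on that side of 1. The TKO over WT ratios of *Mccc1* were 0.801, 1.83, 1.26, and 1.11 in the order left ventricle, infarct, border, remote. For *Ivd* they were 0.903, 2.01, 1.29, and 1.21. The difference of the left ventricle from the other regions was not tested, and each value rests on 1 library per genotype. The WT left ventricle is the library with the high adipocyte markers (30.5 CPM in sum, against 0.463 CPM in the TKO left ventricle). TKO over WT there, lymphocyte markers had a median ratio of 0.163, smooth muscle markers one of 0.786, and atrial markers one of 1.45. The part of these in the values was not tested.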

How the results depend on the processing

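As a yardstick for the median ratio of the 9 genes, the medians of their lower and of their upper interval ends were used. These bounds are not a counting-error interval of the median itself. Of the scalings tried, only total counts without TMM factors moved the median ratio past them, without changing its direction. TKO over WT it became 1.53 in the infarct zone and 1.18 in the border zone. Relative to the left ventricle it became 0.442 (WT infarct), 0.733 (WT border), 0.629 (TKO infarct), and 0.941 (TKO remote). The numbers past 1.5-fold then fell to 5 of 9 for TKO over WT in the infarct zone, 2 of 9 for the WT border zone, and 5 of 9 for the TKO infarct zone. For the departure of the infarct zone, the 0 genes called by edgeR became 4 with DESeq2 and 6 without the WT left ventricle library, and the cause was not tested. The 0 genes called for genotype and the 9 called for the infarct zone held under every alternative run. Over all genes, the 18 called for genotype (10 higher, 8 lower) became 342 with DESeq2 (128 higher, 214 lower), 56 with total counts (12 higher, 44 lower), 83 without the left ventricle, 72 without the WT left ventricle library, and 3 to 6 when another region or the WT remote zone library was left out. For the border zone, 93 became 576 with DESeq2, 200 with total counts, 191 without the WT left ventricle library, and 1 without the WT remote zone library. For the departure, 1 became 288 with DESeq2, 891 without the WT left ventricle library, and 0 without the WT remote zone library. Without a filter on low counts, 7.93% to 14.3% of all genes passed 1.5-fold in the comparisons whose share rose by over 1.5 times. No paired analysis was possible because each group has 1 library, other than the region block that the genotype test already holds. Counts of 505 or more gave narrow counting intervals for the 9 genes, so the missing replicates, and not depth, set the limit.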
